A study of Mus musculus with 50 samples.

Results

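The miRNAs described here are mmu-miR-126a-3p and mmu-miR-126a-5p, the products of the Mir126a hairpin, and mmu-miR-221-3p and mmu-miR-222-3p, a pair made from neighbouring hairpins on the X chromosome. They were taken from the deposited count table by exact name, which gave 4 of 1892 miRNA entries, and all 4 passed the filter on low counts that left 199 miRNAs for testing. The table holds small RNA sequencing of serum from C57BL/6 mice of 8 to 12 weeks, in 5 groups of 5 libraries. MCAO mice had the left middle cerebral artery closed by a filament for 30 min and were bled after 150 min of reperfusion, and MCAO_Sham mice were operated on likewise but the filament was left out of the artery. ICH mice, a model of intracerebral hemorrhage, received 20 µL of their own blood into the striatum, and ICH_Sham mice had the needle placed with nothing injected. Naïve mice were not treated. The interval from operation to bleeding in the ICH, ICH_Sham and MCAO_Sham groups is not given here. Whether the 5 libraries of a group stem from separate animals is not stated in the labels, so the p-values rest on a spread between libraries that may be partly technical.

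A miRNA is cut from a hairpin precursor as 2 arms, named 5p and 3p, and the strand held by an Argonaute protein pairs with target messenger RNAs mainly through its seed, bases 2 to 8. miR-126 is made from an intron of the endothelial gene Egfl7 and is abundant in endothelial cells, where the 3p arm represses Spred1 and Pik3r2 and so favours VEGF signalling and vessel integrity, and the 5p arm represses Dlk1 in mouse endothelium. miR-221 and miR-222 repress the stem cell factor receptor Kit in human endothelial cells and the cell cycle inhibitor Cdkn1b in several cell types, and are also present in vascular smooth muscle. Platelets carry these miRNAs too, and blood that clots releases platelet contents into the serum. Serum miRNA levels therefore have no single source, and in such a bulk sample a change in the number of releasing cells cannot be told apart from a change in the RNA released per cell.

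The sequences are shown for the seed, which the pair from the X chromosome shares. The 3 mature sequences held in the RefSeq-derived table (GRCm38.p6) are printed 5′ to 3′ with the seed in capitals:
mmu-miR-126a-3p: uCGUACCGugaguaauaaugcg
mmu-miR-221-3p: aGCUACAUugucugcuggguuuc
mmu-miR-222-3p: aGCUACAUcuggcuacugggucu
The first 8 bases of miR-221-3p and miR-222-3p are identical, and 11 of 23 positions are the same when the strands are set side by side without gaps. The seed GCUACAU occurred in 3 of 1679 mature names of the table, the third being miR-1928, which had no count here. The seed CGUACCG occurred in miR-126a-3p alone. miR-126a-3p lies at chr2:26591402-26591423 on the plus strand, miR-221-3p at chrX:19146307-19146329 and miR-222-3p at chrX:19146901-19146923, both on the minus strand.

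The hairpins show where each mature strand sits, with the 3p strand in capitals:
Mir126a: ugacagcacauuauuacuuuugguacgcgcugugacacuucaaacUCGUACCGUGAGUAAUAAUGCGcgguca
Mir221: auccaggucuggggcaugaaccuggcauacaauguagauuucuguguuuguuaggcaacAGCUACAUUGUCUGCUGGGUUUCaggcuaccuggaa
Mir222: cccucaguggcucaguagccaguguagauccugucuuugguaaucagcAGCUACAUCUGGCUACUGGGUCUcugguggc
Mir126a spans chr2:26591357-26591429, and 9 transcripts of Egfl7 run across it, with the hairpin in an intron of 8 and in an exon of 1 (GENCODE M21, GRCm38). The hairpin also lies within the overlapping gene Gm20532. Mir126b, a hairpin of 58 bases, is annotated on the opposite strand wholly inside Mir126a. Its mature strands, miR-126b-3p and miR-126b-5p, had 0 counts of 2678832 in the 25 libraries, which allows a level of up to 1.12 CPM (counts per 1000000 counts), counting error only. Mir221 (chrX:19146294-19146388) and Mir222 (chrX:19146893-19146971) are separated by 504 bases, and no other annotated gene lies over either.

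Library totals ranged from 38393 to 315646 counts and 337 to 495 miRNAs were detected per library. Mean totals were 153952 ± 93573 counts in MCAO and 92396 ± 53034 in MCAO_Sham, 118431 ± 24159 in ICH and 115325 ± 41509 in ICH_Sham, and 55662 ± 23160 in Naïve (SD, n = 5 each), so the Naïve libraries were the shallowest. The index tags of the MCAO, MCAO_Sham and Naïve libraries fell into a low and a high range, with 3 of 5 MCAO, 2 of 5 MCAO_Sham and 1 of 5 Naïve libraries in the low one. The ICH libraries and the ICH_Sham libraries each had a separate block of tags, so group and tag cannot be told apart for ICH against ICH_Sham or Naïve. miR-122-5p and miR-451a, both usual in serum, were present with 232080 and 14827 counts.

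miR-126a-3p was the most abundant of the 4, with 17868 counts in all, 0.667% of the counts and rank 36 of the miRNAs. miR-221-3p had 4579 counts (0.171%, rank 68), miR-222-3p 1301 (0.0486%, rank 110) and miR-126a-5p 1273 (0.0475%, rank 112). The 3p arm was the main product of all 3 hairpins. miR-126a-5p made up 6.65% of the counts of both Mir126a arms (95% exact Clopper-Pearson interval 6.30 to 7.01), miR-221-5p 1.38% (1.06 to 1.76) of those of Mir221, and miR-222-5p 1.06% (0.583 to 1.78) of those of Mir222. These intervals cover counting error only, since reads without molecular identifiers are not independent molecules. miR-221-5p and miR-222-5p, with 64 and 14 counts, were too low to test.

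Levels below are in CPM of library totals scaled by TMM, a method that sets most miRNAs equal between libraries, and libraries are numbered as in the labels. miR-126a-3p stood at 5626, 4431, 8649, 5004 and 6957 CPM in MCAO libraries 1 to 5, and at 3974, 6884, 9003, 5812 and 7261 CPM in MCAO_Sham libraries 1, 2, 4, 5 and 7. It stood at 4918, 9267, 5142, 8708 and 5441 CPM in ICH libraries 1 to 5 and at 7939, 7113, 5492, 5362 and 7263 CPM in ICH_Sham libraries 1 to 5. Naïve libraries 1 to 5 had 10037, 8828, 8662, 8944 and 7593 CPM. The 4 operated groups overlapped one another, ICH split into a high pair (2 and 4) and 3 low libraries, and the Naïve group lay high and close together. Means were 6133 ± 1691 CPM in MCAO and 6587 ± 1858 in MCAO_Sham, 6695 ± 2110 in ICH and 6634 ± 1146 in ICH_Sham, and 8813 ± 869.8 in Naïve (SD, n = 5 each). Of the 20 operated libraries, 15 lay below the lowest Naïve library and 0 above the highest. Those counts hold for CPM scaled by TMM and were not made without it. How many of the 199 miRNAs had as many libraries below Naïve was not counted.

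miR-126a-5p, the minor arm, stood at about the level of miR-222-3p. It ranged over 353 to 702 CPM in MCAO (median 518) and 199 to 642 in MCAO_Sham (median 461), 257 to 725 in ICH (median 439.6) and 279.5 to 548 in ICH_Sham (median 434), and 459 to 827 in Naïve (median 553). Means were 505 ± 136 CPM in MCAO and 423 ± 174 in MCAO_Sham, 499 ± 212.3 in ICH and 435 ± 113 in ICH_Sham, and 599 ± 148 in Naïve (SD, n = 5 each). ICH 2 and ICH 4, the high pair for the 3p arm, were also the highest ICH libraries for the 5p arm, with 725 and 716 CPM. Of the 20 operated libraries, 10 lay below the lowest Naïve library and 0 above the highest, again with no such count over all miRNAs.

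miR-221-3p had its highest mean in MCAO. It stood at 1792, 2903, 2242, 2178 and 1913 CPM in MCAO libraries 1 to 5, and at 1656, 2119, 1753, 925 and 1989 CPM in MCAO_Sham libraries 1, 2, 4, 5 and 7. It stood at 2246, 1301, 1925, 1374 and 1468 CPM in ICH libraries 1 to 5 and at 1116, 979, 1677, 1429 and 1497 CPM in ICH_Sham libraries 1 to 5. Naïve libraries 1 to 5 had 1359, 1389, 1758, 2513 and 2118 CPM. MCAO 2 was the highest of all 25 libraries and MCAO_Sham 5 the lowest. The value of MCAO 2 (583 of 315646 counts) was raised by its TMM factor of 0.636, the lowest of the 25. Each stroke group overlapped its sham and every operated group overlapped Naïve. Means were 2206 ± 431 CPM in MCAO and 1688 ± 465 in MCAO_Sham, 1663 ± 406 in ICH and 1339.7 ± 286 in ICH_Sham, and 1827 ± 493 in Naïve (SD, n = 5 each).

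miR-222-3p, which shares the seed, had its lowest means in the 2 stroke groups. It stood at 533, 319, 381, 427 and 570.2 CPM in MCAO libraries 1 to 5, and at 480.2, 620.5, 451, 528 and 821 CPM in MCAO_Sham libraries 1, 2, 4, 5 and 7. It stood at 199, 474, 671, 332 and 432 CPM in ICH libraries 1 to 5 and at 652, 439.9, 584, 699.8 and 538 CPM in ICH_Sham libraries 1 to 5. Naïve libraries 1 to 5 had 622.5, 579, 382, 761 and 766 CPM. ICH 1 was the lowest of the 25 libraries, and that value rests on 20 counts. Of the 20 operated libraries, 4 lay below the lowest Naïve library, 1 above the highest and 15 within the Naïve range, as for miR-221-3p. Means were 446 ± 105 CPM in MCAO and 580.2 ± 149 in MCAO_Sham, 422 ± 175 in ICH and 583 ± 101 in ICH_Sham, and 622 ± 158 in Naïve (SD, n = 5 each).

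**Figure D1:**
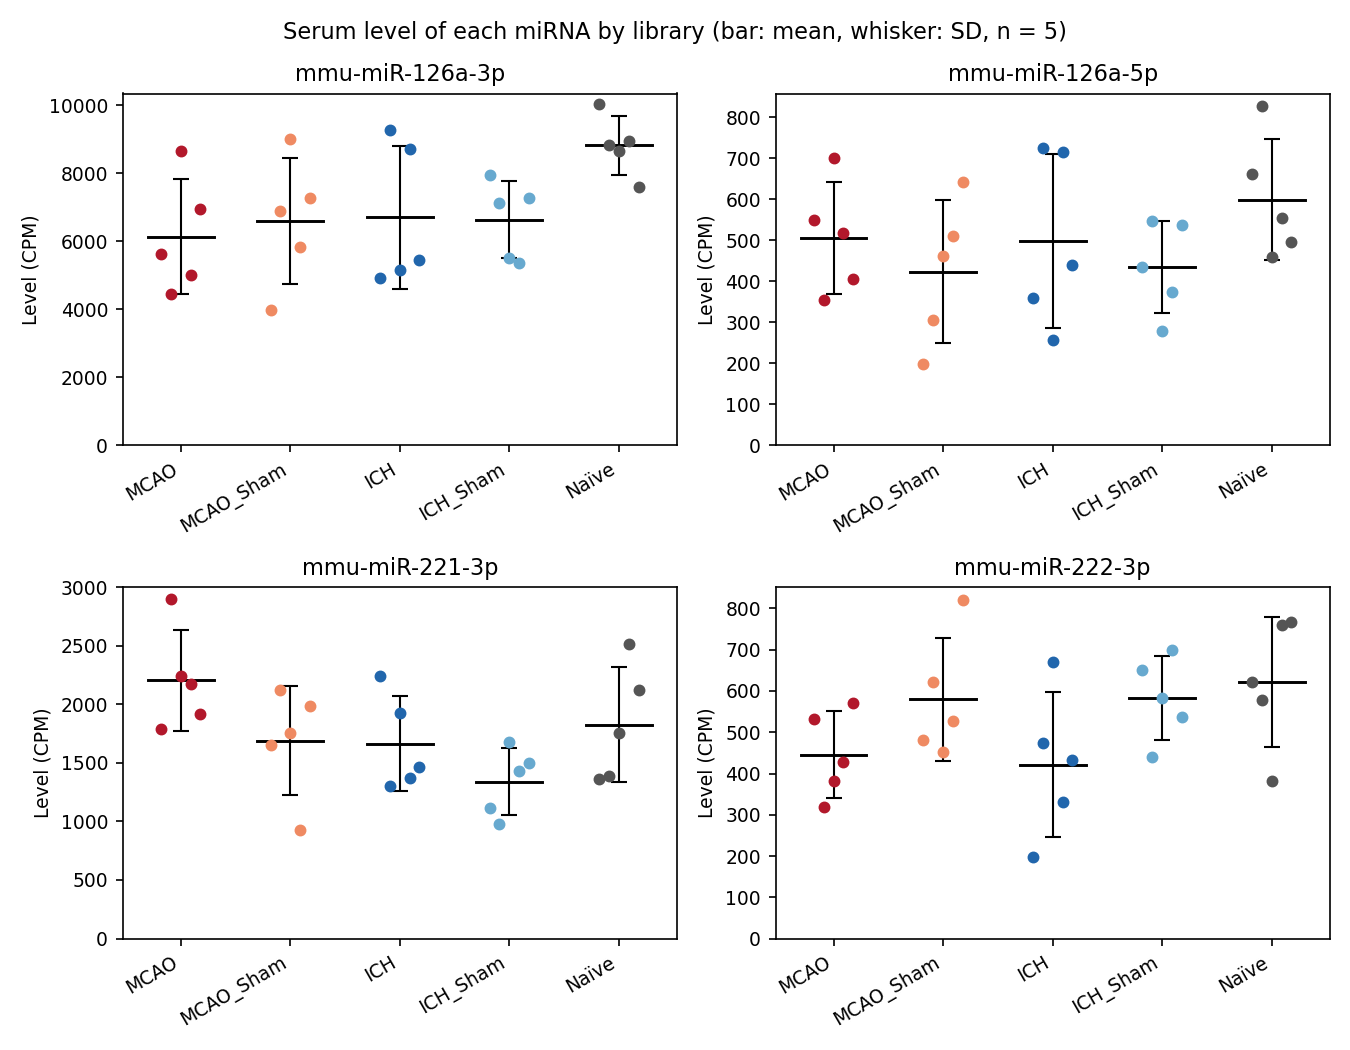
Level of each miRNA in CPM (vertical axis, from 0) for the 5 groups (horizontal axis). Points are libraries, the bar is the group mean and the whisker its SD (n = 5). miR-126a-3p averaged 8813 CPM in Naïve, above the 6133 to 6695 CPM of the operated groups, and in all 4 panels each stroke group overlaps its sham and each operated group overlaps Naïve.

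None of the 4 miRNAs was called different between MCAO and MCAO_Sham, the comparison of ischemia and reperfusion with the operation alone. miR-221-3p had a log2 fold change of 0.38 ± 0.23 (SE) and miR-222-3p one of -0.39 ± 0.25, so the pair with 1 seed had opposite signs. The 95% intervals were -0.09 to 0.86 for miR-221-3p and -0.91 to 0.13 for miR-222-3p. miR-126a-3p had -0.11 ± 0.22 (interval -0.56 to 0.35) and miR-126a-5p 0.24 ± 0.29 (interval -0.36 to 0.84). By the quasi-likelihood test of edgeR, and with p-values adjusted by Benjamini-Hochberg over the 199 miRNAs, the adjusted p was 0.231 for miR-221-3p, 0.257 for miR-222-3p, 0.574 for miR-126a-5p and 0.748 for miR-126a-3p. The count was 0 of 4, beside 15 of 199 miRNAs, or 7.54%, called in that comparison. At an unadjusted p under 0.05 it was also 0 of 4, beside 66 of 199 (33.2%). DESeq2 called 0 of 4 beside 43 of 199 (21.6%), and limma voom 0 of 4 beside 29 of 199 (14.6%). Without MCAO 2, miR-221-3p was at 0.24, and miR-126a-5p was at 0.05 without MCAO 3, 0.09 without MCAO_Sham 1, 0.14 without MCAO_Sham 2 and 0.41 without MCAO_Sham 7. The members' median log2 fold change was 0.07 and that of all 199 miRNAs was 0.00. Non-overlapping groups occurred for 9 of 199 miRNAs (4.52%) and for 0 of the 4.

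The same signs occurred between ICH and ICH_Sham, again with no call. The log2 fold change was 0.31 ± 0.23 (SE) for miR-221-3p (95% interval -0.17 to 0.79) and -0.47 ± 0.25 for miR-222-3p (interval -0.99 to 0.04). miR-126a-3p was at 0.01 ± 0.22 (interval -0.44 to 0.47) and miR-126a-5p at 0.21 ± 0.29 (interval -0.38 to 0.80). edgeR's adjusted p ranged from 0.472 for miR-222-3p to 0.995 for miR-126a-3p. The count was 0 of 4, beside 0 of 199 miRNAs (0%) in that comparison, and at an unadjusted p under 0.05 it was 0 of 4 beside 20 of 199 (10.1%). DESeq2 and limma voom also called 0 of 4, beside 0 of 199 (0%) each. Without ICH 1, miR-221-3p was at 0.15, and without ICH_Sham 2 at 0.20. miR-126a-5p was at 0.03 without ICH 4, 0.04 without ICH 2, 0.09 without ICH_Sham 3 and 0.38 without ICH 3. Groups did not overlap for 2 of 199 miRNAs (1.01%) and for 0 of the 4. The members' median log2 fold change was 0.11 and that of all 199 miRNAs 0.02.

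The 2 stroke effects were not distinguished for any of the 4 miRNAs. The interaction, MCAO effect minus ICH effect, was -0.12 ± 0.32 (SE) for miR-126a-3p, 0.03 ± 0.41 for miR-126a-5p, 0.07 ± 0.33 for miR-221-3p and 0.08 ± 0.36 for miR-222-3p on the log2 scale. edgeR's adjusted p lay between 0.855 and 0.969, and the count was 0 of 4 beside 2 of 199 miRNAs (1.01%). At an unadjusted p under 0.05 it was 0 of 4 beside 33 of 199 (16.6%), while DESeq2 called 0 of 4 beside 3 of 199 (1.51%) and limma voom 0 of 4 beside 2 of 199 (1.01%). The widest 95% interval, for miR-126a-5p, ran from -0.81 to 0.87, so differences within that range between the stroke models were not excluded.

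**Figure D2:**
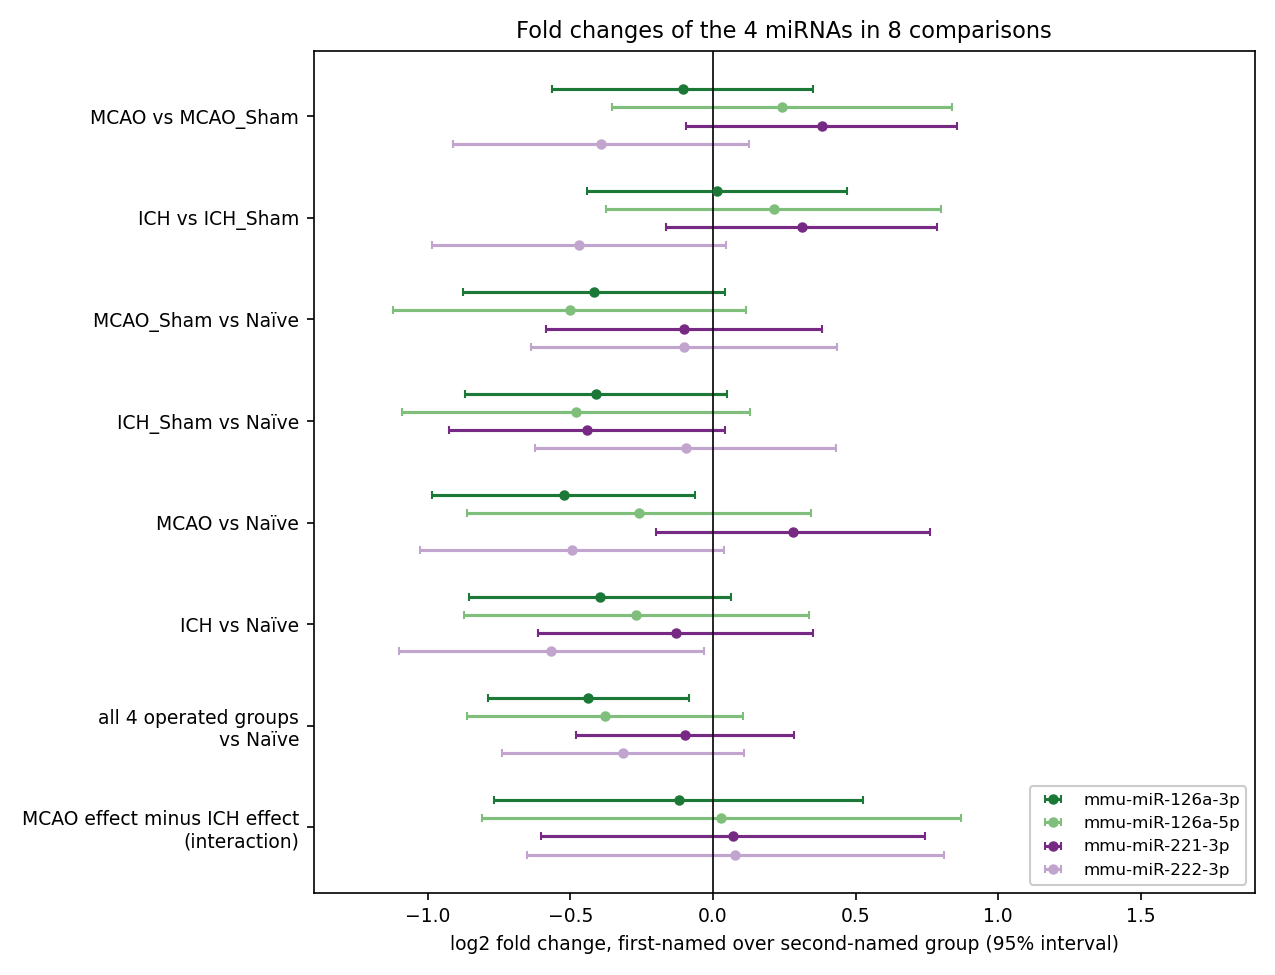
Log2 fold change of the 4 miRNAs (horizontal axis, first-named over second-named group) in 8 comparisons (vertical axis), with 95% intervals from the edgeR fit. miR-221-3p lies right and miR-222-3p left of 0 for both stroke models against their shams, and the intervals of miR-126a-3p exclude 0 for MCAO and for the 4 operated groups against Naïve, although no adjusted p was under 0.05.

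miR-126a-3p was lower in each operated group than in Naïve, by a similar size and without passing the test. Its log2 fold change was -0.52 ± 0.22 (SE) for MCAO, -0.42 ± 0.22 for MCAO_Sham, -0.40 ± 0.22 for ICH and -0.41 ± 0.22 for ICH_Sham. For the 4 operated groups against Naïve it was -0.44 ± 0.17, with a 95% interval of -0.79 to -0.08. edgeR's unadjusted p was 0.0171 and its adjusted p 0.0830 for the operated groups together, and 0.0270 and 0.0756 for MCAO. These comparisons share the Naïve libraries, so they are not independent of each other. miR-126a-5p was also lower in each, at -0.26 ± 0.30 for MCAO, -0.50 ± 0.30 for MCAO_Sham, -0.27 ± 0.30 for ICH, -0.48 ± 0.30 for ICH_Sham and -0.38 ± 0.24 for all operated groups, with edgeR's adjusted p between 0.292 and 0.589.

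The Naïve comparison of miR-126a-3p lay close to the threshold, and most alternative settings did not pass it. For MCAO against Naïve 4 settings passed and 19 did not, and for the operated groups 2 passed and 34 did not. edgeR's adjusted p for MCAO against Naïve was 0.0498 with RLE size factors and 0.0316 with a red cell measure as a covariate, namely miR-451a relative to miR-23a-3p. It was 0.0315 without MCAO 3, where the log2 fold change was -0.74. DESeq2 gave an adjusted p of 0.0387 for MCAO and 0.0496 for the 4 operated groups, and without ICH 2 edgeR gave 0.0456 for the operated groups. Naïve libraries were also the shallowest, and with all libraries thinned to 38393 counts the MCAO value was -0.53 (edgeR's adjusted p = 0.0981). Within the fit that holds the index tag range constant it was -0.61 (edgeR's adjusted p = 0.0626). Among the other settings that did not pass, edgeR's adjusted p for MCAO was 0.495 without the filter, 0.154 with run 1 alone and 0.119 without TMM. For the operated groups edgeR's adjusted p was 0.414, 0.212 and 0.215 in that order, and 0.253 without Naïve 1.

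Neither miR-221-3p nor miR-222-3p was called against Naïve. miR-221-3p had a log2 fold change of 0.28 ± 0.23 (SE) for MCAO, -0.10 ± 0.24 for MCAO_Sham, -0.13 ± 0.24 for ICH and -0.44 ± 0.24 for ICH_Sham. miR-222-3p had -0.49 ± 0.26 for MCAO, -0.10 ± 0.26 for MCAO_Sham, -0.57 ± 0.26 for ICH and -0.10 ± 0.26 for ICH_Sham. Its value was thus larger in size in the stroke groups than in their shams, a difference that the comparisons of each stroke group with its sham did not call. For ICH its edgeR interval, -1.10 to -0.03, excluded 0, with an unadjusted p of 0.0388 and an adjusted p of 0.140. With the red cell covariate that value was -0.78 and edgeR's adjusted p 0.0332.

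The comparisons with Naïve did call other miRNAs. The count of members called by edgeR was 0 of 4 in each, beside 61 of 199 miRNAs (30.7%) for MCAO, 29 (14.6%) for ICH, 13 (6.53%) for ICH_Sham, 1 (0.503%) for MCAO_Sham and 17 (8.54%) for the operated groups together. At an unadjusted p under 0.05, 1 of 4 members was called for MCAO (miR-126a-3p), beside 83 of 199 miRNAs (41.7%), and 1 for ICH (miR-222-3p), beside 57 (28.6%). It was 1 for the operated groups together (miR-126a-3p), beside 60 (30.2%), and 0 for ICH_Sham and MCAO_Sham, beside 34 (17.1%) and 18 (9.05%). Groups did not overlap for 10 of 199 miRNAs (5.03%) for MCAO, 15 (7.54%) for ICH, 17 (8.54%) for ICH_Sham and 1 (0.503%) for MCAO_Sham, and for 0 of the 4 members. DESeq2 called 1 of 4 for MCAO, beside 65 of 199 (32.7%), and 1 for the operated groups together, beside 37 (18.6%). It called 0 of 4 for ICH, ICH_Sham and MCAO_Sham, beside 38 (19.1%), 17 (8.54%) and 1 (0.503%). limma voom called 0 of 4 in each, beside 57 of 199 (28.6%) for MCAO, 27 (13.6%) for ICH, 13 (6.53%) for ICH_Sham, 1 (0.503%) for MCAO_Sham and 23 (11.6%) for the operated groups together. The median log2 fold change of the members was -0.38 for MCAO, -0.33 for ICH, -0.43 for ICH_Sham, -0.26 for MCAO_Sham and -0.35 for the operated groups, while that of all 199 miRNAs lay between -0.05 and 0.02 in all 8 comparisons.

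Some markers of blood cells were called by edgeR in the Naïve comparisons, where no member was. In the red cell list, 3 of 4 entries were kept and none was at 0, and their summed level ranged over 18197 to 31843 CPM in MCAO and 24339 to 64079 in MCAO_Sham, 16689 to 26291 in ICH and 21849 to 38055 in ICH_Sham, and 39105 to 73118 in Naïve. The platelet and myeloid list, with 4 of 5 entries kept and none at 0, ranged over 13906 to 20135 CPM in MCAO and 17457 to 25941 in MCAO_Sham, 11662 to 19186 in ICH and 15206 to 20357 in ICH_Sham, and 19028 to 30727 in Naïve. Both lists had their highest group mean in Naïve, as miR-126a-3p had, and their part in its level was not tested beyond the red cell covariate. The red cell sum came mostly from miR-486-5p, with 65640 counts against 14827 for miR-451a, and miR-451a itself averaged 6842 ± 1436 CPM in MCAO and 6323 ± 1652 in Naïve (SD, n = 5 each). Against Naïve, miR-486-5p, a red cell miRNA listed jointly with miR-3107-5p, had log2 fold changes of -1.31 ± 0.27 (SE) in MCAO, -1.42 ± 0.27 in ICH and -0.89 ± 0.27 in ICH_Sham. edgeR's adjusted p was 0.00085, 0.00039 and 0.0348. That was 1 of 3 kept entries each time, beside 61 (30.7%), 29 (14.6%) and 13 (6.53%) of 199 miRNAs. For MCAO_Sham against Naïve no entry of the list was called. miR-486-5p also fell in MCAO against MCAO_Sham (-0.98 ± 0.27, edgeR's adjusted p = 0.0186), 1 of 3 beside 15 of 199 (7.54%). The other kept entries of that list had positive values there that did not pass, 0.30 ± 0.31 for miR-451a and 0.15 ± 0.45 for miR-144-3p, and the list's median was 0.15. The platelet and myeloid sum came mostly from miR-191-5p, with 41886 counts against 1995 for miR-425-5p, the next highest entry. miR-191-5p, listed for platelets, fell in MCAO against Naïve (-0.62 ± 0.19, edgeR's adjusted p = 0.0203) and in ICH against Naïve (-0.81 ± 0.19, edgeR's adjusted p = 0.00335). miR-425-5p fell in ICH against Naïve (-0.76 ± 0.21, edgeR's adjusted p = 0.0119). The other kept entries, miR-223-3p and miR-142-5p, were not called in any comparison. Calls against Naïve were 1 of 4 for MCAO and 2 of 4 for ICH, beside 61 (30.7%) and 29 (14.6%) of all 199 miRNAs. They were 0 of 4 for ICH_Sham and MCAO_Sham, beside 13 (6.53%) and 1 (0.503%) of 199. The median of that list against Naïve was -0.30 for MCAO, -0.07 for MCAO_Sham, -0.52 for ICH and -0.41 for ICH_Sham. In the lymphocyte list 2 of 3 entries were kept and none was at 0, with sums of 2768 to 6310 CPM in MCAO and 4239 to 9429 in MCAO_Sham, 2782 to 5336 in ICH and 4721 to 6596 in ICH_Sham, and 7704 to 18543 in Naïve. There miR-150-5p, the lymphocyte miRNA, fell in each operated group against Naïve, with log2 fold changes of -1.63 for MCAO, -1.13 for MCAO_Sham, -1.84 for ICH and -1.15 for ICH_Sham (edgeR's adjusted p 0.0334 or less). That was 1 of 2 kept entries each time, beside 61 (30.7%), 1 (0.503%), 29 (14.6%) and 13 (6.53%) of 199 miRNAs in the same order. In the smooth muscle list, a tissue in which miR-221 and miR-222 are also found, 4 of 4 entries were kept and the 1 call was miR-145a-5p, which fell in ICH against Naïve (-1.04 ± 0.32, edgeR's adjusted p = 0.0281). That was 1 of 4 beside 29 of 199 miRNAs (14.6%). The median of that list was -0.04 for ICH against Naïve, and its sum averaged 52526 CPM in ICH and 50221 CPM in Naïve. In the liver list miR-122-5p was the 1 of 2 entries kept, and it was not called in any comparison.

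Of 3 ratios between members, that of the pair with the shared seed had the largest difference between each stroke group and its sham, and none passed the test. A ratio within a library does not depend on the scaling of the library. With 0.5 added to each count, the counts of miR-221-3p over those of miR-222-3p were 3.35, 9.05, 5.83, 5.06 and 3.33 in MCAO libraries 1 to 5. The values were 3.41, 3.39, 3.87, 1.74 and 2.41 in MCAO_Sham libraries 1, 2, 4, 5 and 7. They were 11.05, 2.73, 2.85, 4.11 and 3.38 in ICH libraries 1 to 5, against 1.71, 2.21, 2.86, 2.03 and 2.76 in ICH_Sham libraries 1 to 5. In Naïve libraries 1 to 5 they were 2.17, 2.38, 4.48, 3.27 and 2.74. MCAO 2 and ICH 1 were far above the rest, and each stroke group overlapped its sham.

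On the log2 scale with 0.5 added to each count, this ratio was 2.31 ± 0.60 in MCAO and 1.51 ± 0.47 in MCAO_Sham (SD, n = 5 each), a difference of 0.80 or 1.74-fold. The exact two-sided permutation test over 252 splits gave p = 0.0794, adjusted to 0.357 over the 18 ratio tests. It was higher in the MCAO library in 19 of 25 pairings of an MCAO with a MCAO_Sham library. Among low tags the difference was 1.07 (3 MCAO and 2 MCAO_Sham libraries) and among high tags 0.30 (2 MCAO and 3 MCAO_Sham libraries). It was 2.04 ± 0.83 in ICH and 1.19 ± 0.31 in ICH_Sham, a difference of 0.86 or 1.81-fold, with an exact permutation p of 0.0397 and an adjusted p of 0.286. It was higher in the ICH library in 22 of 25 pairings. ICH 1 decided much of that size, since without it the difference was 0.50 (adjusted p = 0.357, exact permutation test over 126 splits).

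Against Naïve (1.54 ± 0.41), the log2 ratio differed by 0.77 in MCAO (exact permutation p = 0.0397, adjusted p = 0.286), higher in 23 of 25 pairings, and by 0.51 in ICH (exact permutation p = 0.278, adjusted p = 0.545). Without ICH 1 the ICH value was 0.15. The sham groups differed from Naïve by -0.03 for MCAO_Sham and -0.35 for ICH_Sham. None of the 18 ratio tests had an adjusted p under 0.05, and the smallest p that 252 splits allow is 0.00794.

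The pair was also summed, since both strands carry the same seed. The sum was 2652 ± 340.1 CPM in MCAO and 2269 ± 548 in MCAO_Sham, 2084 ± 407 in ICH and 1922 ± 334 in ICH_Sham, and 2449 ± 595 in Naïve (SD, n = 5 each). Of the mean, miR-221-3p made up 83.2% in MCAO and 74.4% in MCAO_Sham, 79.8% in ICH and 69.7% in ICH_Sham, and 74.6% in Naïve. No test of the sum was made.

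**Figure D3:**
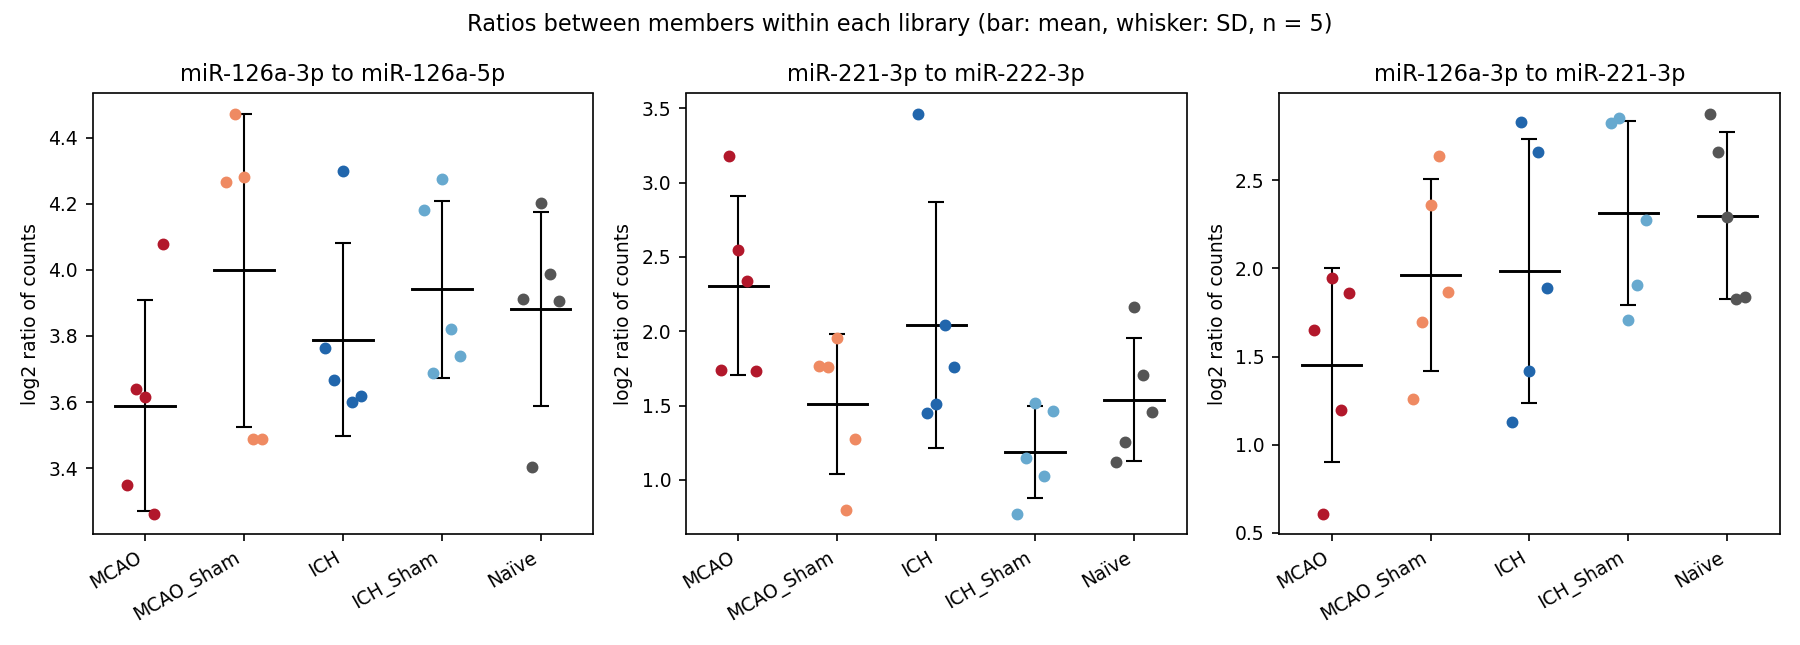
Log2 ratio of counts within each library (vertical axes, not starting at 0) for miR-126a-3p to miR-126a-5p, miR-221-3p to miR-222-3p and miR-126a-3p to miR-221-3p, by group. Points are libraries, bars means and whiskers SD (n = 5). In the middle panel MCAO averages 2.31 against 1.51 in MCAO_Sham, and ICH 2.04 against 1.19 in ICH_Sham, with ICH 1 far above the other ICH libraries.

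The arms of Mir126a did not differ in balance between stroke and sham by the test made, and the SD of their ratio within groups was 0.27 to 0.47, against 0.31 to 0.83 for the ratio of miR-221-3p to miR-222-3p. The log2 ratio of miR-126a-3p to miR-126a-5p was 3.59 ± 0.32 in MCAO and 3.999 ± 0.47 in MCAO_Sham, a difference of -0.41 (exact permutation p = 0.119, adjusted p = 0.411, n = 5 each). It was 3.79 ± 0.29 in ICH and 3.94 ± 0.27 in ICH_Sham, a difference of -0.15 (exact permutation p = 0.333, adjusted p = 0.545, n = 5 each), and 3.88 ± 0.29 in Naïve. With single libraries left out, the ICH difference ranged from -0.28 without ICH 3 to -0.07 without ICH_Sham 3. Within index tag ranges the difference between MCAO and MCAO_Sham was -0.38 among low tags and -0.36 among high tags. In summed counts, miR-126a-5p made up 7.75% of both arms in MCAO (95% exact interval 6.96 to 8.60) and 5.68% in MCAO_Sham (4.96 to 6.45). It made up 7.06% in ICH (6.33 to 7.84), 6.06% in ICH_Sham (5.34 to 6.85) and 6.497% in Naïve (5.57 to 7.52). Those intervals cover counting error within pooled libraries, and the permutation test over libraries did not separate MCAO from MCAO_Sham.

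miR-126a-3p set against miR-221-3p gave the third ratio. Its log2 value was 1.45 ± 0.55 in MCAO and 1.96 ± 0.55 in MCAO_Sham, 1.98 ± 0.75 in ICH and 2.31 ± 0.52 in ICH_Sham, and 2.30 ± 0.48 in Naïve (SD, n = 5 each). MCAO was the lowest, with a difference of -0.51 from MCAO_Sham (exact permutation p = 0.175, adjusted p = 0.411) and of -0.85 from Naïve (exact permutation p = 0.0476, adjusted p = 0.286). ICH differed from ICH_Sham by -0.33 (exact permutation p = 0.421, adjusted p = 0.626). Without MCAO 2 the difference from MCAO_Sham was -0.30. That of ICH from ICH_Sham ranged from -0.54 without ICH 2 to -0.12 without ICH 1. Among low tags the difference between MCAO and MCAO_Sham was -0.86, and among high tags -0.11.

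The arms of Mir126a were near the closest of all miRNAs to each other over the 25 libraries, and the clustered pair stood in the middle of the ranking. Likeness was measured as the SD over the 25 libraries of the difference in log2 CPM, where a small value means parallel levels, and it includes the group differences. For miR-126a-5p the nearest of the 198 other miRNAs was miR-126a-3p, at 0.332, followed by miR-16-5p at 0.352 and miR-451a, the red cell miRNA, at 0.387. For miR-126a-3p the nearest were miR-146b-5p at 0.327, miR-126a-5p and miR-215-5p at 0.352, with a median of 0.629 over all 198. miR-221-3p was nearest to miR-30d-5p at 0.298, miR-93-5p at 0.3799 and miR-30c-5p at 0.383, and miR-222-3p was only 86th at 0.637. For miR-222-3p the nearest were miR-425-5p at 0.304, miR-191-5p at 0.311 and let-7d-3p at 0.331, and miR-221-3p was 84th. Both miR-425-5p and miR-191-5p are on the platelet and myeloid list. These are descriptions over libraries that share scaling and depth, with no test, and miR-222-3p and miR-126a-5p had the lowest counts of the 4.

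**Figure D4:**
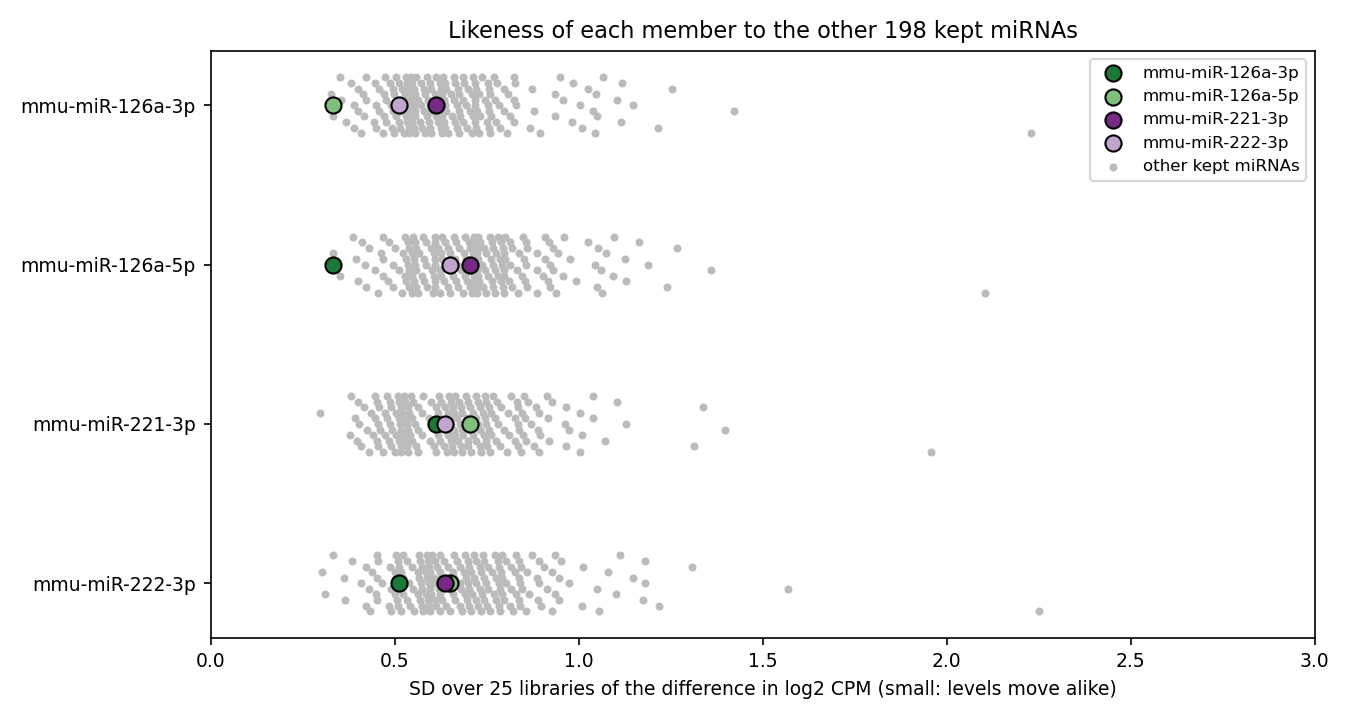
SD over the 25 libraries of the difference in log2 CPM (horizontal axis, small values mean parallel levels) between each of the 4 miRNAs (rows) and the 198 others (grey points, spread vertically for sight alone). Coloured points are the other members: miR-126a-3p and miR-126a-5p lie at 0.332 from each other, at the low end, and miR-221-3p and miR-222-3p at 0.637, in the middle of the cloud.

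The other vascular miRNAs gave the setting for these values. Of 20 names on that list, which holds the miR-23, miR-24 and miR-27 clusters, the miR-17-92 members, miR-10, miR-100 and miR-181b, 13 were kept. edgeR called 0 of 13 for MCAO against MCAO_Sham and for ICH against ICH_Sham, beside 15 (7.54%) and 0 (0%) of all 199 miRNAs. It called 0 of 13 for MCAO_Sham against Naïve and for the interaction, beside 1 (0.503%) and 2 (1.01%) of 199. For MCAO against Naïve, miR-27b-3p (log2 fold change 0.69 ± 0.21, SE) and miR-27a-3p (0.57 ± 0.18) rose, and miR-92a-3p (-1.33 ± 0.33), miR-10a-5p (-0.72 ± 0.27) and miR-181b-5p (-0.69 ± 0.24) fell. That was 2 of 13 higher and 3 lower, beside 61 of 199 miRNAs (30.7%) called. For ICH against Naïve, miR-27b-3p (0.71 ± 0.21) and miR-27a-3p (0.59 ± 0.18) rose and miR-92a-3p (-1.02 ± 0.33) fell, 2 of 13 higher and 1 lower, beside 29 of 199 (14.6%). miR-27a and miR-27b promote vessel sprouting in mouse and zebrafish, and miR-92a represses it in mouse ischemia models. Any link of these serum levels to sprouting was not tested. For ICH_Sham against Naïve, miR-19b-3p fell (-0.88 ± 0.26), 1 of 13 beside 13 of 199 (6.53%). For the 4 operated groups against Naïve, miR-27a-3p rose (0.46 ± 0.15) and miR-92a-3p fell (-0.82 ± 0.25), beside 17 of 199 miRNAs (8.54%) called. The list's median log2 fold change was -0.20 for MCAO against MCAO_Sham, 0.17 for ICH against ICH_Sham, -0.14 for MCAO against Naïve and 0.19 for ICH against Naïve.

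The spread between libraries set what could be seen. The SD of log2 CPM within groups was 0.352 for miR-126a-3p, 0.486 for miR-126a-5p, 0.3597 for miR-221-3p and 0.406 for miR-222-3p, against a median of 0.451 over the 199 miRNAs. Highest over lowest library was 2.53-fold for miR-126a-3p, 4.16-fold for miR-126a-5p, 3.14-fold for miR-221-3p and 4.13-fold for miR-222-3p. From the highest to the lowest group mean, miR-126a-3p ran Naïve, ICH, ICH_Sham, MCAO_Sham, MCAO, and miR-126a-5p Naïve, MCAO, ICH, ICH_Sham, MCAO_Sham. miR-221-3p ran MCAO, Naïve, MCAO_Sham, ICH, ICH_Sham, and miR-222-3p Naïve, ICH_Sham, MCAO_Sham, MCAO, ICH. No pair of neighbours in these orders that was compared by edgeR passed its threshold, and neighbours from different operations were not compared.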

How the data were processed

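Serum small RNA libraries were made with the NEBNext kit from a fixed volume of RNA drawn from 200 µL of serum, per the labels' protocols. Serum was separated after clotting and hemolysis was checked by absorbance, per the labels' protocols. Reads went through Bowtie 0.12.9, as the submitters' processing notes list it. Build, annotation release and the handling of multiply matching reads are not given in these sources. The authors deposited whole-number counts per mature miRNA, not normalized, in 50 columns, and the 2 runs of each library, which share an index tag and differed by 0.792 to 1.27 chi-square per degree of freedom, were summed.

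The members, the marker lists and the tests were chosen with earlier results of these data known. filterByExpr (minimum count 10) kept 199 miRNAs with 99.5% of the counts. TMM scaling and edgeR's robust quasi-likelihood test, with 1 mean per group over all 25 libraries (20 residual degrees of freedom), were used, with Benjamini-Hochberg adjustment over the 199 miRNAs and a threshold of 0.05. The design was tested on simulated data with changes larger than any of the members' here, so power for changes of their size was not tested. Ratios used a pseudocount of 0.5 and exact permutation tests, adjusted over 18 tests. Named neighbours were the 3 nearest miRNAs per member. The alternatives were other scalings, no filter, DESeq2, limma voom, a replicate block, an index tag block, each run alone, a red cell covariate, thinning, only the compared groups, and each library left out. Sequences came from RefSeq and annotation from GENCODE M21, and 3 of 4 members matched a mature sequence. The R 4.3.3 packages were DESeq2 1.42.0, limma 3.58.1 and edgeR 4.0.16, with matplotlib 3.10.9 under Python 3.11.15.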

Additional observations from a re-analysis of the deposited data

Results flagged for a closer look

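In ICH 3 the log2 ratio of miR-126a-3p to miR-126a-5p was 4.299, and the other ICH libraries lay at 3.60 to 3.76. The gap to the nearest library was 0.767 of the whole ICH range, above the 95% limit of Dixon's test for 5 libraries. This was 1 of 35 sets of 5 values examined, and chance alone marks about 1 in 20.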

How the results depend on the processing

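Over all alternatives and comparisons, the count of members passing stayed at 0 of 4 in 196 cases and differed in 7. The count was 1 for MCAO against Naïve with RLE size factors, with DESeq2 and with the red cell covariate, 1 for ICH against Naïve with the red cell covariate (miR-222-3p) and 1 for the operated groups against Naïve with DESeq2. With single libraries left out it ranged from 0 to 1 for MCAO against Naïve (1 without MCAO 3) and from 0 to 1 for the operated groups against Naïve (1 without ICH 2). Fold changes kept their direction and side of the threshold in 761 of 812 cases and ratio differences in 234 of 252. The values whose sign changed lay between -0.27 and 0.24 as reported, and the cause was not tested. For MCAO against MCAO_Sham, miR-126a-5p was -0.12 with the red cell covariate, against 0.24 as reported. For ICH against ICH_Sham, miR-126a-3p was -0.0023 with totals lacking miR-148a-3p and miR-122-5p, -0.020 with limma voom, -0.0093 and -0.0065 with run 1 and run 2 alone, and -0.10 thinned. With run 2 alone, miR-222-3p was 0.012 for MCAO_Sham and 0.085 for ICH_Sham against Naïve. Without the filter, miR-221-3p was 0.00058 for ICH and 0.0079 for the operated groups against Naïve, and with the red cell covariate miR-126a-5p was 0.093 for ICH against Naïve, against -0.27 as reported. In the interaction, totals alone gave -0.16 for miR-126a-5p, -0.12 for miR-221-3p and -0.13 for miR-222-3p. Run 1 alone gave -0.22 for miR-126a-5p and -0.011 for miR-222-3p there, the red cell covariate -0.38 for miR-126a-5p and thinning -0.30 for miR-222-3p. With run 1 alone the log2 ratio of miR-126a-3p to miR-126a-5p was -0.067 for MCAO_Sham and -0.021 for ICH_Sham against Naïve, and that of miR-221-3p to miR-222-3p was 0.022 for MCAO_Sham against Naïve. With run 2 alone miR-126a-3p to miR-221-3p was -0.011 for ICH_Sham against Naïve, and thinned, miR-126a-3p to miR-126a-5p was 0.13 for ICH against Naïve.

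With single libraries left out, miR-126a-3p ranged from -0.29 to 0.0031 for MCAO against MCAO_Sham and from -0.15 to 0.10 for ICH against ICH_Sham. miR-221-3p ranged from -0.24 to 0.0082 for MCAO_Sham, from -0.28 to 0.0037 for ICH and from -0.21 to 0.028 for the operated groups against Naïve, and miR-222-3p from -0.19 to 0.036 for ICH_Sham against Naïve. In the interaction miR-126a-3p ranged from -0.31 to 0.035, miR-126a-5p from -0.16 to 0.21, miR-221-3p from -0.035 to 0.24 and miR-222-3p from -0.059 to 0.28. The log2 ratio of miR-126a-3p to miR-126a-5p ranged from -0.0029 to 0.245 for MCAO_Sham and from -0.061 to 0.14 for ICH_Sham against Naïve. That of miR-221-3p to miR-222-3p ranged from -0.14 to 0.15 for MCAO_Sham against Naïve, and that of miR-126a-3p to miR-221-3p from -0.12 to 0.17 for ICH_Sham against Naïve.

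The replicate numbers gave no clear sign of pairing, though so few correlations cannot exclude it. Over 9 same-numbered pairs of a stroke group and its sham, correlations of deviations ran from -0.25 to 0.33, with 3 over 0.1. Over all pairs of groups 14 of 46 same-numbered pairs were over 0.1. Of 4 MCAO and 5 ICH libraries with a sham of their number, 2 and 1 correlated best with it. With the replicate block 0 of 4 members passed in each comparison, miR-126a-3p was -0.015 for ICH against ICH_Sham, and the operated groups against Naïve had 26 of 199 miRNAs called, beside 17. The number of miRNAs tested differed between settings, from 156 thinned to 925 without the filter, against 199 as reported. Over the miRNAs tested, other settings gave 2 to 43 calls for MCAO against MCAO_Sham (15 as reported), 21 to 66 for MCAO against Naïve (61), 23 to 44 for ICH against Naïve (29), 17 to 40 for the operated groups (17) and 0 to 3 for the interaction (2). Leaving out single libraries gave 2 to 55, 25 to 73, 15 to 40, 7 to 36 and 0 to 7 in the same order. Depth limits miR-126a-5p and miR-222-3p most, whose values rest on 1273 and 1301 counts over 25 libraries, and the Naïve libraries, which were the shallowest.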
